A study of Mus musculus with 35 samples.

Results

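The data compared here are the polyadenylated RNA of interscapular brown adipose tissue (iBAT) from mice kept at 6 °C for 3 days and from mice kept at 6 °C for 2 days. The members were chosen by their labels: the 5 mice of the 3-day group and the 5 mice of the 2-day group, 10 of the 35 mice in the series, with every gene of the count table taken in. The other 25 mice were controls at a colony temperature of 24 °C or had spent 6 hours, 1 day, 4 days or 5 days in the cold. They were not used in the test of 3 against 2 days. Both groups were C57BL/6J males aged 9 to 10 weeks on standard chow, without any transgene, and both had been housed singly, without nesting material, in the cold incubator. The groups therefore differ by 1 further day of cold, and no mouse of either group stayed warm. The question is which transcripts separate the 2 days at which the immune and proliferative phase of the cold response, delayed and uneven among mice, comes up.

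Brown adipose tissue burns lipid to make heat through uncoupling protein 1, under the control of noradrenaline, beta-adrenergic receptors and protein kinase A (PKA). The tissue also holds endothelial cells, fibroblast-like progenitors, macrophages and other leukocytes, and in prolonged cold progenitors divide and macrophages accumulate near dying adipocytes. Interferons are secreted proteins that act through receptors, JAK kinases and STAT transcription factors to switch on a large set of antiviral genes, the interferon-stimulated genes, in nearly any cell type.

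The 10 libraries held between 3913519 and 6031117 counts, with 16196 to 18774 genes detected. By a 2-sided exact permutation test, whose smallest attainable p is 0.00794, p was 0.563 for total counts, 0.770 for genes detected, 0.206 for the share of mitochondrial transcripts and 0.175 for the share of the rRNA-like gene Gm42418. The mitochondrial share was 40.1% ± 3.72 (SD, n = 5) after 2 days and 37.4% ± 2.72 (SD, n = 5) after 3 days. Ucp1, the defining marker of brown adipocytes, lay between 4113 and 8306 CPM (counts scaled to a common library size) after 2 days and between 4286 and 6754 CPM after 3 days, so that the labelled tissue was evident in every library. Markers of skeletal muscle, which lies beside the depot, varied widely within both groups: the summed level of the 22 tested markers ran from 148 to 870 CPM after 2 days and from 85.8 to 1265 CPM after 3 days. None of those 22 genes had an unadjusted p below 0.05. Markers of neutrophils, mammary epithelium and mesothelium were too low to test (0 of 9, 0 of 11 and 0 of 6 genes passed the filter), with Ly6g, Krt5, Krt8 and Upk1b at 0 counts in all 35 libraries. Of 19 lymphocyte markers 1 passed.

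Between 2 and 3 days of cold, 14 genes rose and 1 fell out of 10530 tested (edgeR, adjusted p below 0.05 after Benjamini-Hochberg correction), that is 0.133% and 0.0095% of the genes. Of those that rose, 11 are known as interferon-stimulated genes or genes of antigen presentation: Ifit3, Irf7, Rsad2, Isg15, Cmpk2, Bst2, Lgals3bp, Igtp, Gbp5, Trim25 and Tap2. The other genes that rose were the complement regulator Serping1, the proteolipid gene Nnat and the clock output gene Hlf. The gene that fell was Gmpr, which encodes guanosine monophosphate reductase. Tap2 and Serping1 fell outside the naming rule and were named after their values were seen. Below the adjusted threshold, 880 genes (8.36%) had an unadjusted p below 0.05, 506 of them (4.81%) higher and 374 (3.55%) lower after 3 days. The counts of list members at an unadjusted p below 0.05 given further on are to be read against these shares. The values of the 5 mice of each group did not overlap for 162 genes (1.54%). The median log2 fold change of all genes tested was -0.0017. RNA was taken from whole tissue, so more cells of a type and more RNA per cell cannot be told apart for any gene below.

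**Figure D1:**
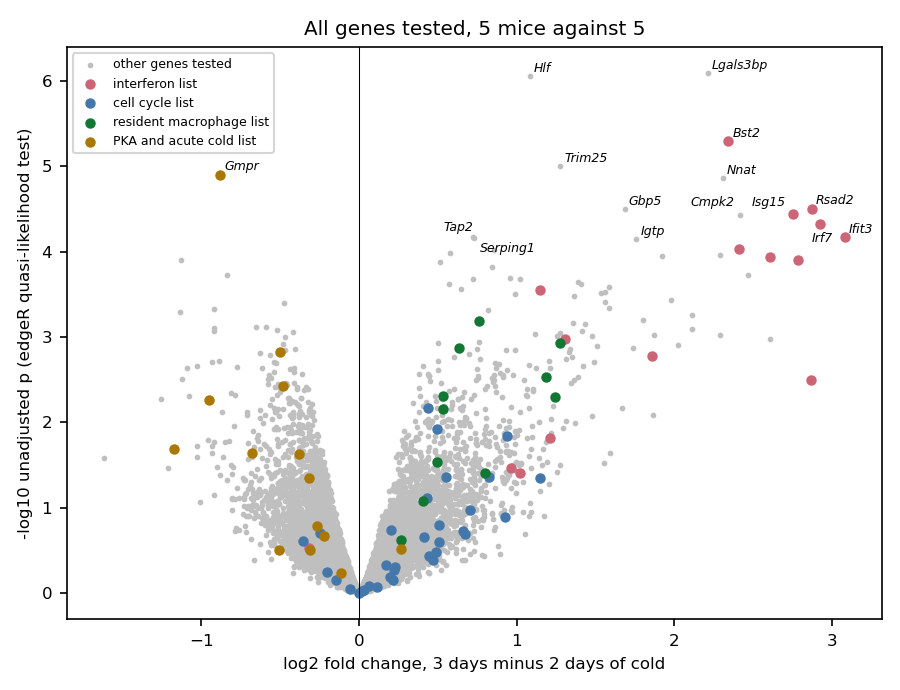
Each point is 1 of the 10530 genes tested, with the log2 fold change between 3 and 2 days of cold on the horizontal axis and -log10 of the unadjusted p (edgeR quasi-likelihood test, 5 mice against 5) on the vertical axis. Members of 4 gene lists are coloured and the 15 called genes are named. The interferon list lies at the upper right with log2 fold changes of up to 3.08, the cell cycle list lies lower, and Gmpr stands alone at the upper left.

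The interferon-stimulated genes gave the largest differences. The promoters of those that held the core of the interferon-stimulated response element are shown first, because the element is the sequence through which the transcription factors of the pathway act on such genes. The core was searched as GAAANNGAAA on either strand, with overlapping matches allowed, in windows from 250 bases before to 50 bases after the start of each gene (RefSeq, GRCm38.p6). Of the 14 genes that rose, 12 had a window and 6 of those held the core, Isg15, Ifit3, Rsad2, Bst2, Gbp5 and Igtp, whereas the core was present in 3.99% of 27025 windows of the same length and in 3.58% of the windows of tested genes. No match was found in the windows of Lgals3bp, Cmpk2, Irf7, Trim25, Nnat and Hlf, which says only that these letters are not in those stretches. Matches are in capitals in the 6 windows below, written 5′ to 3′ on the strand of the gene. Those of Isg15 (chr4:156200769-156201068, minus strand), Ifit3 (chr19:34583279-34583578, plus strand) and Bst2 (chr8:71537423-71537722, minus strand) held more than 1 match. Those of Rsad2 (chr12:26456403-26456702, minus strand), the most abundant of the genes, and of the interferon-inducible GTPases Igtp (chr11:58199306-58199605, plus strand) and Gbp5 (chr3:142496684-142496983, plus strand) held 1 each. The 3 matches of Isg15 overlap in a single run that begins 78 bases before the start, and the match of Igtp begins 34 bases before it.
Isg15: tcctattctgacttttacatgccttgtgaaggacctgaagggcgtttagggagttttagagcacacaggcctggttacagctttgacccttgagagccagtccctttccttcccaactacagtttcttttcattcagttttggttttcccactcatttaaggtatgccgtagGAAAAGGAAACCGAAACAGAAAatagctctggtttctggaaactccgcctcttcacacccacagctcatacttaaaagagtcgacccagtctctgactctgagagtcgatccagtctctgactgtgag
Ifit3: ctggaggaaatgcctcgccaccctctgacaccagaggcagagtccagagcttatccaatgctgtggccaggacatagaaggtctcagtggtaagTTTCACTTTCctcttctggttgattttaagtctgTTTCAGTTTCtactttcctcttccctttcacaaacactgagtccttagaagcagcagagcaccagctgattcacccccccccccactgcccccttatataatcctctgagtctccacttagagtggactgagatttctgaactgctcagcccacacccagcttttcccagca
Bst2: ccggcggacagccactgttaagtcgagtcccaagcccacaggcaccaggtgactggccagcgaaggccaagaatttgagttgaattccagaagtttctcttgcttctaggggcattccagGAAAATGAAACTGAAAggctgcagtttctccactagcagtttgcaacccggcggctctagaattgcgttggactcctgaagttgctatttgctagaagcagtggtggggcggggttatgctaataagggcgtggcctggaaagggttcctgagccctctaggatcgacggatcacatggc
Rsad2: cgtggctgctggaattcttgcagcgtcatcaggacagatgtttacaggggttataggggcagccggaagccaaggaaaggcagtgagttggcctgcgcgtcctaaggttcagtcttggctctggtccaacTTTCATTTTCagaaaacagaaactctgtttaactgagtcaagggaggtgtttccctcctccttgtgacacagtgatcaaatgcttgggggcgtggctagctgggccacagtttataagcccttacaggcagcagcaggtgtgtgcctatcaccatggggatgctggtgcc
Igtp: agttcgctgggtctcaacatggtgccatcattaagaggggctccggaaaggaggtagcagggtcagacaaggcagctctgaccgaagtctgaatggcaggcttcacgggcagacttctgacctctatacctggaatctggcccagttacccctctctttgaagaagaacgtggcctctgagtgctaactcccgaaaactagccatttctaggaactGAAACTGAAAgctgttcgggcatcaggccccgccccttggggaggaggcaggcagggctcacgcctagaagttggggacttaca
Gbp5: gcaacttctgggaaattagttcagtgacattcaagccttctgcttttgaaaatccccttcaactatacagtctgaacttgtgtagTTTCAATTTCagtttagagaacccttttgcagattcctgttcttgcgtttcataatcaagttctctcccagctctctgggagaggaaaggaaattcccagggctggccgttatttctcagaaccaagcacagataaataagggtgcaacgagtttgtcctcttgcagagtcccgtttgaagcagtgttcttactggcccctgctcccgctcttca

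The ligands themselves were not seen. All 21 interferon genes in the table, of types I, II and III, had 0 counts in all 10 mice, which allows at most 3 counts a library, or 0.497 to 0.767 CPM depending on depth. Of these, 19 had 0 counts in all 35 libraries. The receptor chains were read at moderate levels and differed little. Ifnar1, the chain every type I interferon needs, lay between 7.61 and 18.7 CPM after 2 days and between 10.5 and 18.2 CPM after 3 days, with a log2 fold change of 0.01 ± 0.22 (SE). Its partner Ifnar2 had a log2 fold change of 0.01 ± 0.14. The 5 receptor genes tested had a median log2 fold change of 0.014, and none had an unadjusted p below 0.05.

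Downstream of the receptors, the transcription factors that carry the signal were higher after 3 days without passing the adjusted test, whereas the kinases were not. Stat2 read 9.35, 7.88, 6.47, 4.46 and 1.73 CPM in the 5 mice at 2 days and 32.9, 13.7, 30.1, 30.2 and 9.25 CPM at 3 days (replicates 1 to 5 in each case). Only the lowest 3-day mouse, replicate 5, fell among the 2-day values, and the log2 fold change was 1.92 ± 0.38 (adjusted p = 0.0578, edgeR). Irf9, its partner on DNA, had a log2 fold change of 0.67 ± 0.23 (adjusted p = 0.355, edgeR). The kinases Jak1, Jak2 and Tyk2 lay at log2 fold changes of 0.21, 0.13 and -0.15. In this list of 7 transducers, assembled after values were seen, 4 had an unadjusted p below 0.05, all higher, and the median was 0.52. Irf9 shares exon positions with Rnf31 on the same strand.

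Irf7, the transcription factor that amplifies the type I response, rose. It read 3.02, 3.48, 2.70, 2.63 and 2.31 CPM in the mice at 2 days against 29.2, 7.18, 22.95, 43.5 and 3.60 CPM at 3 days. Every 3-day mouse lay above every 2-day mouse, though replicate 5 only narrowly, and the log2 fold change was 2.92 ± 0.52 (adjusted p = 0.0451, edgeR). An exon of Irf7 overlaps Phrf1 on the opposite strand, and whether the counting kept the strands apart is not given in the sources used here.

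Rsad2, which encodes viperin, an enzyme that makes a chain-terminating nucleotide against viruses, was the most abundant of the genes that rose. Its levels were 49.9, 43.8, 56.5, 17.9 and 25.1 CPM at 2 days and 415, 92.7, 389, 453 and 58.3 CPM at 3 days. The groups did not overlap, and 3 of the 5 mice at 3 days stood far above the other two. The log2 fold change was 2.87 ± 0.50 (adjusted p = 0.0390, edgeR), a 7.31-fold difference. Cmpk2, a nucleotide kinase that lies next to Rsad2 on chromosome 12 and is transcribed away from it, showed the same order of mice at 3 days. It read 6.94, 5.56, 9.53, 5.78 and 5.77 CPM at 2 days and 47.4, 14.8, 39.7, 67.6 and 9.51 CPM at 3 days. Here the lowest 3-day mouse lay just under the highest 2-day mouse (log2 fold change 2.42 ± 0.42, adjusted p = 0.0390).

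Isg15 encodes a ubiquitin-like protein that is attached to other proteins during the interferon response. It read 3.32, 3.71, 3.96, 1.05 and 3.17 CPM at 2 days and 23.6, 8.41, 29.9, 36.6 and 4.63 CPM at 3 days, with no overlap (log2 fold change 2.75 ± 0.48, adjusted p = 0.0390, edgeR). Its protease Usp18, which also damps receptor signalling, had a log2 fold change of 2.78 ± 0.55 and an adjusted p of 0.0578. Ifit3, of the family that binds foreign RNA, gave the largest log2 fold change of the called genes, 3.08 ± 0.57 (adjusted p = 0.0497). Its values were 7.09, 12.3, 4.32, 1.31 and 2.88 CPM at 2 days and 73.0, 17.2, 63.9, 77.0 and 7.97 CPM at 3 days, so the groups overlapped through replicate 2 at 2 days and replicate 5 at 3 days. Reads of Ifit3 may be shared with its near-identical copy Ifit3b, which was too low to test (18 counts in all at 2 days and 113 at 3 days). Ifit1 (2.61 ± 0.51), Oasl2 (2.41 ± 0.46) and Mx1 (2.87 ± 0.82) missed the adjusted threshold at 0.0578, 0.0578 and 0.236.

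Bst2, or tetherin, which holds budding virus at the cell surface, read 4.07, 2.78, 1.98, 0.788 and 3.17 CPM at 2 days and 16.1, 8.002, 13.7, 19.6 and 8.48 CPM at 3 days. Its groups lay well apart (log2 fold change 2.34 ± 0.34, adjusted p = 0.0180, edgeR). Lgals3bp, a secreted glycoprotein that binds galectin-3 and is induced by interferon, was the gene with the smallest p. It read 21.7, 19.7, 14.6, 16.5 and 21.9 CPM at 2 days and 91.5, 48.6, 102, 145 and 43.9 CPM at 3 days. No mouse at 3 days came near the 2-day values, and the log2 fold change was 2.21 ± 0.28 (adjusted p = 0.00464). Lgals3bp and Hlf were called in all 10 fits that left out 1 mouse, and Bst2 in 6 of 10. Rsad2, Cmpk2, Isg15, Ifit3, Irf7, Igtp, Gbp5, Tap2 and Serping1 were each called in 2 of the 10, so that leaving out most single mice ended those calls.

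**Figure D2:**
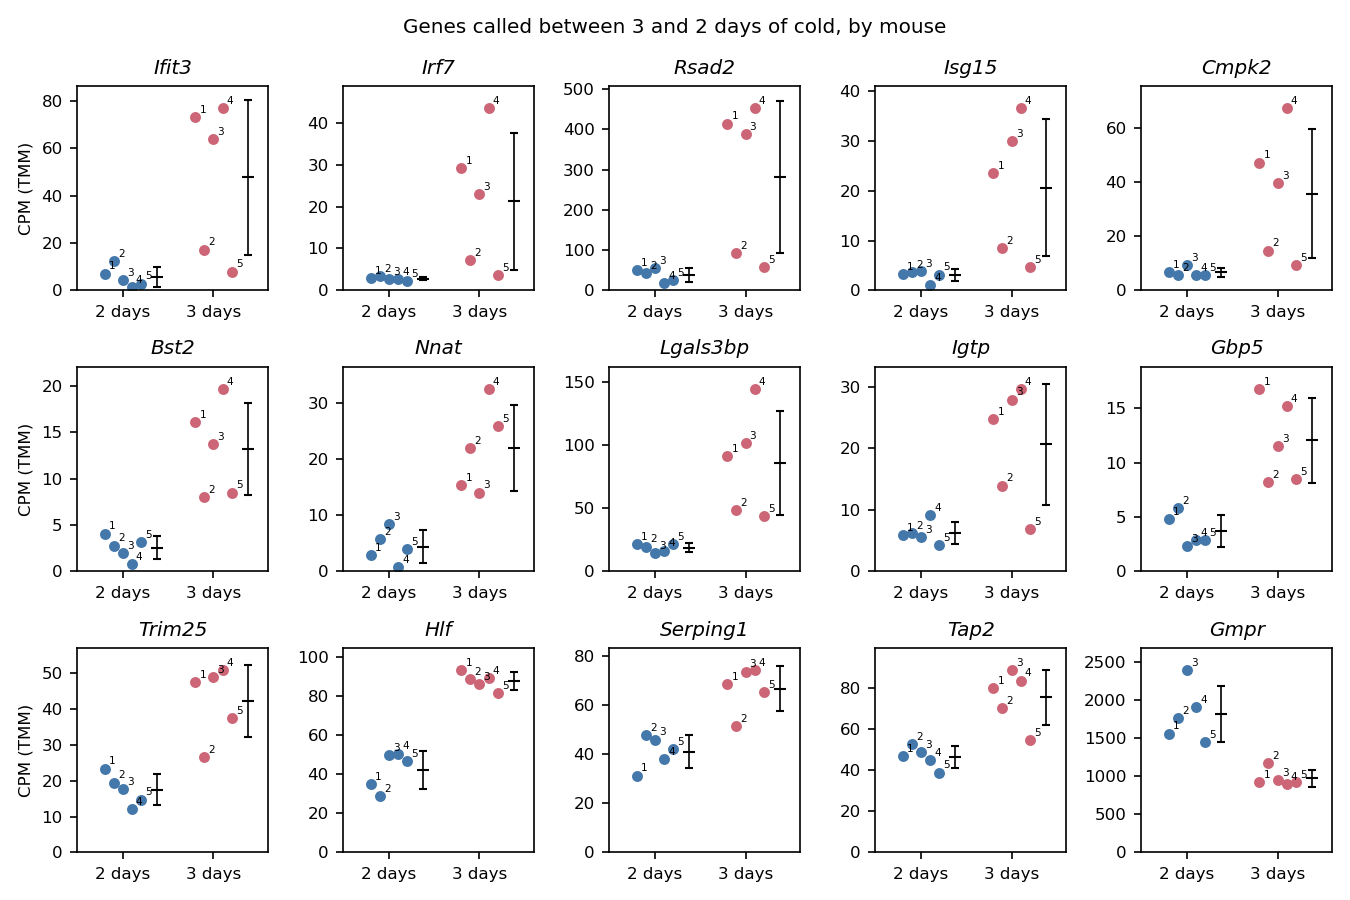
The level of each of the 15 called genes, in CPM scaled by TMM, in each mouse at 2 days (blue) and 3 days (red) of cold, with replicate numbers beside the points and the mean ± SD of 5 mice in black. For the interferon-stimulated genes, replicates 1, 3 and 4 at 3 days stand high and replicates 2 and 5 lie nearer the 2-day mice, while Nnat, Hlf and Gmpr divide the groups without that split.

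Among sensors of viral nucleic acid, Trim25, the ubiquitin ligase that activates RIG-I, rose from 17.5 ± 4.35 to 42.2 ± 10.1 CPM (SD, n = 5 each), with no overlap between 12.1 to 23.4 and 26.7 to 50.8 CPM (log2 fold change 1.28 ± 0.20, adjusted p = 0.0242, edgeR). RIG-I itself (Ddx58) had a log2 fold change of 1.59 ± 0.34 (adjusted p = 0.0812) and MDA5 (Ifih1) 1.42 ± 0.34 (adjusted p = 0.152). The adaptors Mavs (-0.14), Tmem173, which encodes STING (-0.03), and Myd88 (-0.02), the kinase Tbk1 (0.04) and Irf3 (-0.13) lay near 0. In all, 5 of the 10 sensing genes tested had an unadjusted p below 0.05, all higher, against 4.81% of all genes. The sensing list, like those for GTPases, antigen processing and complement below, was assembled after values were seen.

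The interferon-inducible GTPases, which attack the vacuoles of intracellular microbes, were all on the higher side. All 10 tested had a positive log2 fold change with an unadjusted p below 0.05, against 4.81% of all genes. Of these, 2 rose past the adjusted threshold, against 0.133% of all genes. Igtp went from 6.25 ± 1.80 to 20.6 ± 9.80 CPM (log2 fold change 1.76 ± 0.33, adjusted p = 0.0497, edgeR), with replicate 5 at 3 days, 6.94 CPM, under the highest 2-day mouse. Igtp shares exon positions with Irgm2 on the same strand, so reads in that stretch cannot be told apart. Gbp5 went from 3.75 ± 1.49 to 12.1 ± 3.88 CPM without overlap (log2 fold change 1.69 ± 0.29, adjusted p = 0.0390). The family's median was 1.42, and it included Gbp3 at 2.47, Iigp1 at 1.54 and, lowest, Gbp4 at 0.75. All 7 of its members that had a promoter window held the core sequence described above, against 3.58% of the windows of tested genes. So did 7 of 11 in the list of interferon response genes and 6 of 22 in a list of antiviral genes. The count was 3 of 16 in the pan-myeloid list, 2 of 29 in the cell cycle list and 2 of 30 in the matrix list. These lists are described below. The GTPase, interferon and antiviral lists were made of genes of this pathway, on which the element acts. Their shares are therefore a description, and whether the element had a part in the rise was not tested.

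Genes that process and carry peptides for MHC class I differed less. Tap2, a subunit of the peptide transporter, read 46.9, 52.9, 48.9, 44.9 and 38.9 CPM at 2 days and 80.3, 70.4, 89.0, 83.8 and 54.7 CPM at 3 days, without overlap (log2 fold change 0.72 ± 0.13, adjusted p = 0.0497, edgeR). The overlapping genes Gm15821 and Gm20496 lie on the other strand. Tapbp, which tethers the transporter to MHC, had 0.73 ± 0.15 (adjusted p = 0.0735), and B2m, the light chain, 0.75 ± 0.19 (adjusted p = 0.183). The class I heavy chains H2-K1 and H2-D1 lay at 0.23 and 0.38. Of 16 genes tested 7 had an unadjusted p below 0.05, all higher, and the median was 0.52. MHC class II genes, carried by dendritic cells and other professional presenting cells, had a median of 0.11 over 5 genes, with none under an unadjusted p of 0.05.

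Serping1, the inhibitor of complement C1, rose from 40.9 ± 6.63 to 66.6 ± 9.18 CPM without overlap (log2 fold change 0.73 ± 0.14, adjusted p = 0.0497, edgeR). C1qa, a chain of C1q made by macrophages, was also separated between groups, 17.2 to 23.4 CPM against 24.9 to 35.7 CPM, but missed the threshold (0.65 ± 0.14, adjusted p = 0.0827). C3, the central component, lay at 0.01. Of the 12 complement genes tested, 7 had an unadjusted p below 0.05, all higher.

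A list of interferon response genes, chosen with earlier results of these data known, held 16 that were tested. Of these, 5 rose past the adjusted threshold (Ifit3, Irf7, Rsad2, Isg15 and Bst2), against 0.133% of all genes. All but 1, that is 15 genes, had an unadjusted p below 0.05, all higher, and the median log2 fold change was 2.37. The exception was Ifi27l2a, at -0.32 ± 0.29, which was read at 191 to 697 CPM at 2 days and 159 to 428 CPM at 3 days. A longer list of 28 antiviral genes, drawn up after values were seen and sharing members with the first, had 7 that rose, against 0.133% of all genes. All 28 were positive, against 5229 of the 10530 genes tested, and the median was 2.05. Since its members were picked with these values known, the list adds no separate evidence. Several antiviral genes were too low to pass the filter. Mx2 went from 17 counts over the 5 mice at 2 days to 268 at 3 days, Zbp1 from 27 to 191 and Ifi209 from 22 to 133, all without a test.

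**Figure D3:**
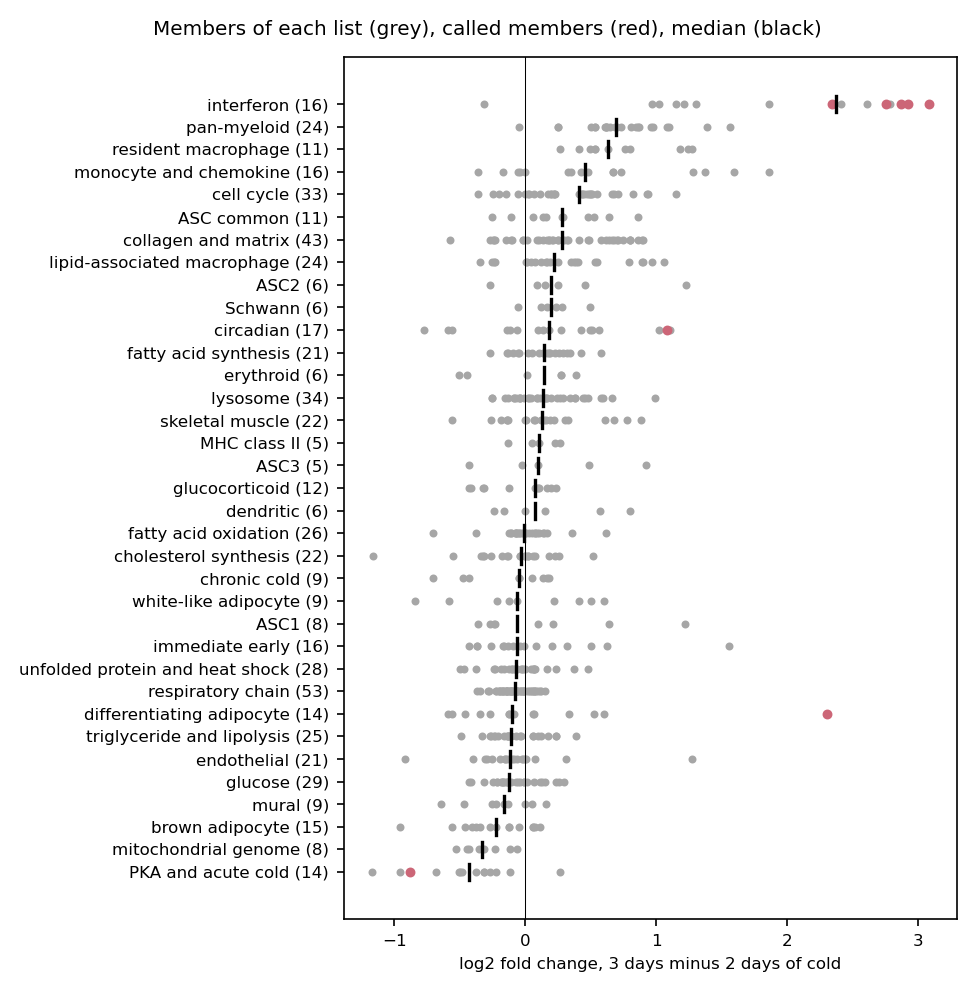
Log2 fold changes between 3 and 2 days of cold for the tested members of 35 gene lists (numbers in parentheses), with grey points for members that were not called, red points for called members and black bars for medians. ASC stands for adipose tissue stromal cell and PKA for protein kinase A. The interferon list has the highest median, 2.37, the pan-myeloid list follows at 0.69, and the PKA and acute cold list has the lowest, -0.43.

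The rise was unequal among mice. For 12 of the 14 genes that rose, all but Nnat and Hlf, the 3 highest mice at 3 days were replicates 1, 3 and 4. The lowest was replicate 5 for 9 of the 14 genes and replicate 2 for 4. The mean log2 CPM of the interferon list was 3.42, 3.46, 3.03, 2.18 and 2.57 at 2 days and 5.60, 3.86, 5.18, 5.50 and 3.18 at 3 days. Replicate 5 at 3 days was thus within the range of the 2-day mice, and replicate 2 at 3 days was just above it. Leaving these mice out shows what they weigh in the count: 47 genes rose without replicate 2 at 3 days and 65 without replicate 5, whereas 2 rose without replicate 1 or without replicate 4 at 3 days.

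Markers of proliferation and of lipid-associated macrophages were uneven in another way, because some 2-day mice already had them. Lgals3, which encodes galectin-3, read 265, 150, 14.9, 8.40 and 27.7 CPM at 2 days and 227, 20.3, 229, 138 and 69.1 CPM at 3 days. Gpnmb, a glycoprotein of lysosome-rich macrophages, read 83.8, 31.1, 1.08, 2.63 and 2.596 CPM at 2 days and 82.4, 5.33, 82.0, 35.2 and 12.1 CPM at 3 days. For both genes replicate 1 at 2 days was the highest of the 10 mice. Replicate 2 at 2 days was above 3 of the 5 mice at 3 days for Lgals3, and for Gpnmb it lay between the 3 higher and the other 3-day mice.

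Top2a, the topoisomerase of dividing cells, followed the same 2 mice: 29.4, 19.2, 5.03, 1.84 and 5.19 CPM at 2 days and 19.1, 12.1, 17.3, 25.0 and 13.9 CPM at 3 days. In those 2 mice of the 2-day group Rsad2 read 49.9 and 43.8 CPM and Isg15 3.32 and 3.71 CPM, far below the 389 to 453 CPM and 23.6 to 36.6 CPM of replicates 1, 3 and 4 at 3 days, whose Lgals3 was at 138 to 229 CPM. By the mean of the interferon list these 2 mice were the highest of the 2-day group, at 3.42 and 3.46 against 2.18 to 3.03, but below the 5.18 to 5.60 of those 3 mice. The difference between these sets of mice, which were picked by their values, was not tested. The mitochondrial share of the libraries also differed among mice. At 2 days it was 34.64% and 38.03% in replicates 1 and 2, below the 41.77% to 43.43% of the others. At 3 days it was 34.66% to 38.18% in replicates 1, 3 and 4, 37.92% in replicate 2 and 41.33% in replicate 5. The part of library or tissue composition in these divisions of the mice was not tested.

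**Figure D4:**
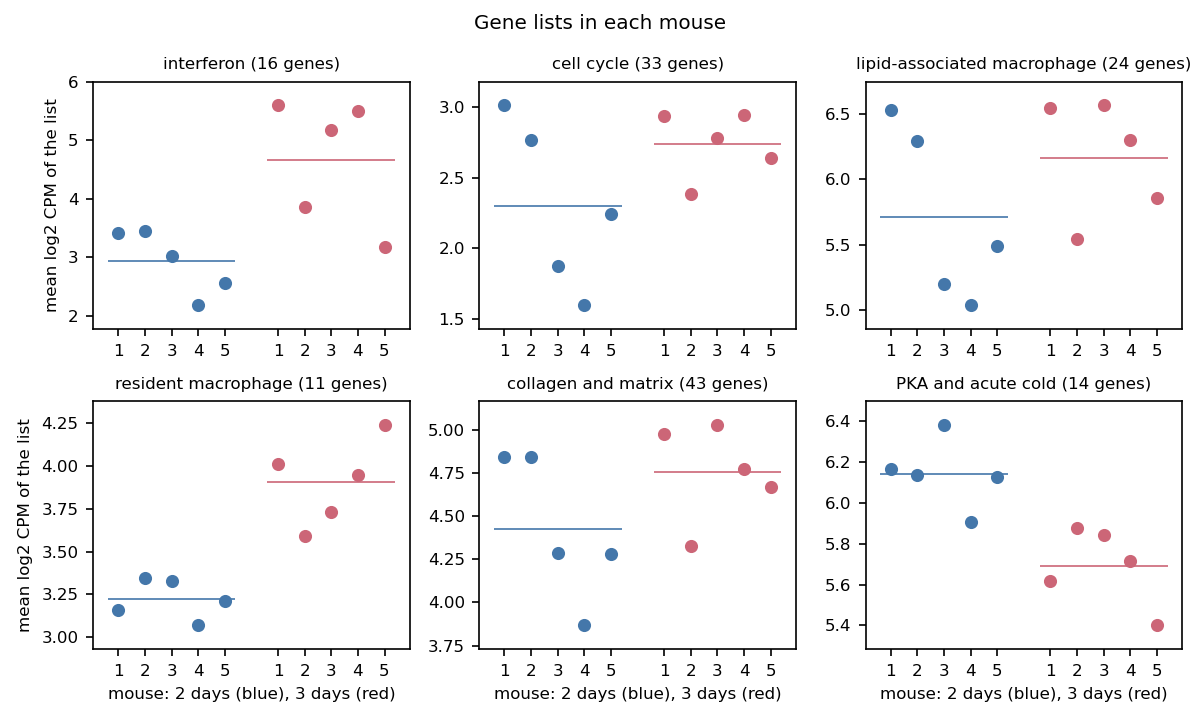
Mean log2 CPM of 6 gene lists in each mouse, by replicate number, at 2 days (blue) and 3 days (red) of cold, with a line at the mean of each group. The axes do not start at 0. For the cell cycle, lipid-associated macrophage and matrix lists replicates 1 and 2 at 2 days stand with the 3-day mice, while for the interferon list they lie between the other 2-day mice and replicates 1, 3 and 4 at 3 days, close to replicates 2 and 5, and for the resident macrophage and PKA lists the groups do not overlap.

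None of the 33 cell cycle genes tested was called. Top2a had a log2 fold change of 0.49 ± 0.49 (adjusted p = 0.864, edgeR), and Mki67 0.93 ± 0.58 (adjusted p = 0.730). Of the 33, 6 had an unadjusted p below 0.05, all higher, against 4.81% of all genes. Among them were Tk1, the thymidine kinase, at 1.15, Pclaf, a partner of the replication clamp, at 0.94, and Rrm1, a ribonucleotide reductase subunit, at 0.44. The median was 0.41. Birc5, or survivin, was too low to test, with 0 to 22 counts a mouse at 2 days and 5 to 24 at 3 days.

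Of 24 lipid-associated macrophage genes none was called, and the median was 0.22. At an unadjusted p below 0.05, 2 were higher and 2 lower, against 4.81% and 3.55% of all genes. This list also holds Fabp4, which is in the brown adipocyte list, and Plin2 and Cd36, which are in a list of triglyceride and lipolysis genes. Its summed level at 3 days was 14139 to 16887 CPM, against 192 to 273 CPM for the resident macrophage list. Its counts and median are therefore not those of macrophages alone. Lgals3 (0.55 ± 0.75), Gpnmb (0.79 ± 0.85) and Spp1, or osteopontin (0.89 ± 0.92), had standard errors about as large as their differences. Of 11 resident macrophage genes none was called either, but 9 had an unadjusted p below 0.05, all higher, with a median of 0.64. Lyve1, a hyaluronan receptor of perivascular macrophages, is also in the endothelial list, so its RNA here is not that of macrophages alone. It read 4.83, 5.80, 3.60, 1.84 and 6.06 CPM at 2 days and 10.0, 4.72, 10.3, 13.3 and 14.6 CPM at 3 days (1.27 ± 0.32, adjusted p = 0.173, edgeR). Replicate 5 at 3 days, lowest for most interferon-stimulated genes, was the highest for Lyve1 and for Cbr2, a carbonyl reductase of resident macrophages. Cbr2 read 43.7 CPM in that mouse, with a log2 fold change of 0.76 ± 0.18 (adjusted p = 0.136, edgeR). The mean log2 CPM of the resident macrophage list lay between 3.07 and 3.34 at 2 days and between 3.59 and 4.24 at 3 days.

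Genes shared by myeloid cells gave 10 of 24 with an unadjusted p below 0.05, all higher, none called, and a median of 0.69. The widest log2 fold changes were those of Ms4a7 (1.56 ± 0.34, adjusted p = 0.0837, edgeR) and of Adgre1, which encodes the macrophage antigen F4/80 (1.39 ± 0.39, adjusted p = 0.231). Among 16 monocyte and chemokine genes 5 were higher at an unadjusted p below 0.05, including the interferon-inducible chemokine Cxcl10 at 1.59, Ccl5 at 1.37 and Ccl8 at 1.28. Ccl2, the main attractant of monocytes, lay at -0.04. Interferon-stimulated genes are expressed by macrophages as well as other cells, and the part of macrophage content in their rise was not tested.

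By the mean log2 CPM of the matrix list, replicates 1 and 2 at 2 days, both at 4.84, were again within the 4.32 to 5.02 of the 3-day mice, and the other 2-day mice were at 3.87 to 4.29. Single genes did not all show this. Col1a1, a chain of type I collagen, read 101, 148, 80.9, 50.1 and 91.7 CPM at 2 days and 205, 98.7, 181, 175 and 151 CPM at 3 days (0.80 ± 0.24, adjusted p = 0.260, edgeR). None of 43 matrix genes was called, and the median was 0.28. Of the 43, 15 had an unadjusted p below 0.05, all higher, against 4.81% of all genes. Col5a2 (0.90 ± 0.25), Col18a1 (0.89 ± 0.24) and Col6a2 (0.86 ± 0.23) were the widest. The basement membrane collagens Col4a1 and Col4a2 lay at -0.23 and -0.27.

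Hlf, a PAR bZIP transcription factor driven by the circadian clock, was separated between the groups by a wide gap. It read 35.0, 29.0, 49.8, 50.7 and 46.7 CPM at 2 days and 93.6, 89.0, 86.1, 89.4 and 81.5 CPM at 3 days (log2 fold change 1.08 ± 0.14, adjusted p = 0.00464, edgeR). The 3-day mice were close to each other, with an SD of 4.47 CPM around 87.9 CPM, and did not show the division of replicates 1, 3 and 4 from 2 and 5. Its relatives and other clock outputs were higher without being called: Dbp at 1.10 ± 0.33 (adjusted p = 0.258) and Per3 at 1.02 ± 0.21 (adjusted p = 0.0735), the latter at 6.03 to 13.3 CPM against 13.95 to 25.0 CPM. Nfil3, a repressor that acts on the same sites as the PAR bZIP factors, was lower, 14.997 to 20.1 CPM against 6.17 to 14.4 CPM (-0.77 ± 0.21, adjusted p = 0.216). The core clock gene Arntl lay at -0.56, Nr1d1 at 0.18 and Per1 at 0.10. Dbp overlaps Sphk2 on the other strand. The time of day at which tissue was taken is not given in the sources used here, so its part in these differences cannot be told apart from that of the extra day.

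Nnat encodes neuronatin, a small membrane proteolipid that is present in differentiating adipocytes. It read 2.87, 5.80, 8.45, 0.788 and 4.04 CPM at 2 days and 15.4, 21.95, 14.1, 32.6 and 26.0 CPM at 3 days, again without overlap (log2 fold change 2.31 ± 0.37, adjusted p = 0.0242, edgeR). Its highest mice at 3 days were replicates 4 and 5. Replicate 5 was among the lowest for the interferon-stimulated genes. Replicate 4 was the highest at 3 days for Rsad2, Isg15, Irf7 and Lgals3bp, though not for Gbp5 or Tap2. The small RNA gene Gm23134 overlaps Nnat on the other strand. The rest of the list for differentiating adipocytes did not rise with it. Of its 14 tested genes, 5 were lower and 2, including Nnat, higher at an unadjusted p below 0.05, and the median was -0.10. The adipogenic factors Cebpb (-0.59 ± 0.14, adjusted p = 0.148), Prdm16 (-0.56 ± 0.18, adjusted p = 0.311) and Ebf2 (-0.46 ± 0.13, adjusted p = 0.249) were on the lower side.

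Gmpr was the gene that fell. It was at 1559, 1759, 2394, 1903 and 1449 CPM at 2 days and 921, 1169, 949, 893 and 920 CPM at 3 days, without overlap (log2 fold change -0.88 ± 0.14, adjusted p = 0.0242, edgeR). It overlaps Atxn1 on the opposite strand. Gmpr belongs to a list of PKA targets and acute cold genes, which the study's own clusters helped to define on these samples. Of 14 tested genes in it, 8 had an unadjusted p below 0.05, all lower, against 3.55% of all genes, and the median was -0.43. Ppargc1a, the coactivator of mitochondrial biogenesis, read 253, 183, 368, 119 and 372 CPM at 2 days and 93.3, 103, 204, 172 and 85.1 CPM at 3 days, with overlap (-0.95 ± 0.30, adjusted p = 0.294). The nuclear receptor Nr4a2 was at -0.50 ± 0.13 (adjusted p = 0.186), and Dio2, which activates thyroid hormone, at -0.38 ± 0.15 (adjusted p = 0.496). Ucp1 was at -0.22 ± 0.17 (adjusted p = 0.811).

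Brown adipocyte genes and mitochondrial transcripts leaned the same way. Of 15 brown adipocyte genes, 7 had an unadjusted p below 0.05, all lower, none called, with a median of -0.22, and some of them are also in the PKA list. All 8 genes of the mitochondrial genome that were tested had a negative log2 fold change, from -0.53 (mt-Cytb) to -0.06 (mt-Nd1), and 3 had an unadjusted p below 0.05. The 53 nuclear genes of the respiratory chain had a median of -0.077. With libraries scaled by their totals alone the medians were -0.12 for brown adipocyte genes, -0.24 for the mitochondrial genome and 0.012 for the respiratory chain, so the sign of the last depends on the scaling.

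Nnmt, a methyltransferase of nicotinamide expressed in adipocytes, was lower without being called: 125 to 234 CPM against 77.2 to 120 CPM (-0.84 ± 0.17, adjusted p = 0.0735, edgeR). Of 9 genes that the study grouped as chronically induced by cold, which were therefore picked on these samples, 3 had an unadjusted p below 0.05, all lower: Ehhadh (-0.71), Slc25a34 (-0.48) and Pdk4 (-0.43). Fasn and Acly, enzymes of fatty acid synthesis, were at 0.16 and 0.14. Sox18, a transcription factor of endothelial cells, was at 14.2 to 27.4 CPM and 6.93 to 13.7 CPM (-0.92 ± 0.22, adjusted p = 0.151), while the 21 endothelial genes tested had a median of -0.11.

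Over the whole course the genes that rose fell into different shapes, described here without a test. The median of Isg15 was 1.55 CPM at 24 °C, 1.57 at 6 hours, 0.766 at 1 day, 3.32 at 2 days, 23.6 at 3 days, 12.8 at 4 days and 7.86 at 5 days. From 3 days on its range within a group was wide, 4.63 to 36.6 CPM at 3 days, 1.40 to 33.8 CPM at 4 days and 1.96 to 27.1 CPM at 5 days, so these groups overlap throughout. Rsad2 likewise had its highest median, 389 CPM, at 3 days, with 178 CPM at 4 days and 94.9 CPM at 5 days. Lgals3bp was highest at 4 days, with a median of 111 CPM. In these 3 genes the medians of the controls at 24 °C were below those of 2 days, for Lgals3bp only just (19.2 against 19.7 CPM). In Igtp and Gbp5 they were not. Igtp had a median of 10.003 CPM at 24 °C, 2.97 at 1 day, 5.88 at 2 days and 24.7 at 3 days. The medians of Gbp5 were 8.48, 1.25, 2.89 and 11.6 CPM, so that the 3-day level of both followed a low in early cold. A median lower at 1 day than at 24 °C was also seen in Isg15, in Rsad2 (13.9 against 23.9 CPM) and in Lgals3bp (11.9 against 19.2 CPM).

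Nnat ran in the other direction first. Its median was 39.9 CPM at 24 °C, 21.3 at 6 hours, 9.87 at 1 day and 4.04 at 2 days, its lowest, then 21.95 at 3 days, 39.7 at 4 days and 40.0 at 5 days. Hlf had a median of 131 CPM at 24 °C, 43.9 at 6 hours and 29.0 at 1 day, and its 3-day median of 89.0 CPM was followed by 70.6 at 4 days and 41.7 at 5 days. Gmpr went from a median of 95.0 CPM at 24 °C to 3593 at 6 hours and 4443 at 1 day, then stood at 1759, 921, 1126 and 896 CPM at 2, 3, 4 and 5 days.

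**Figure D5:**
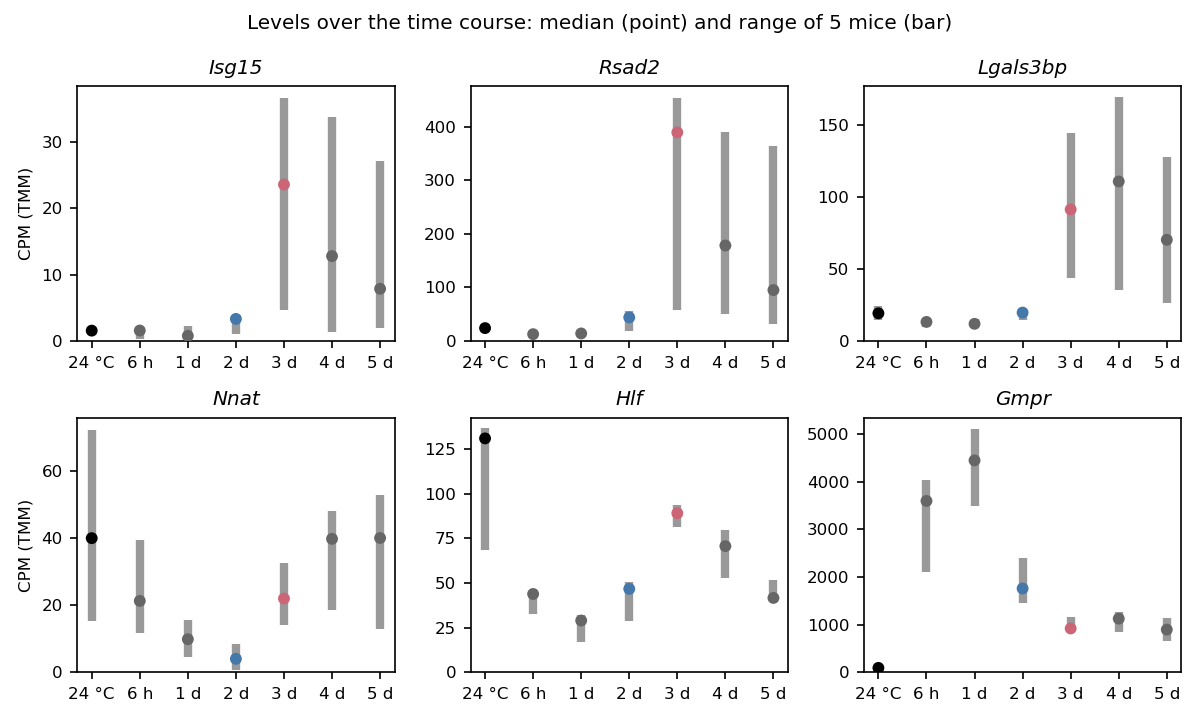
Levels of 6 called genes in CPM (scaled by TMM) in the 7 groups, from controls at 24 °C to 5 days of cold, with a point at the median and a grey bar from the lowest to the highest of 5 mice. Isg15, Rsad2 and Lgals3bp are low up to 2 days (blue) and high with wide ranges from 3 days (red), Nnat has its lowest point at 2 days, Hlf has its second peak at 3 days, and Gmpr falls from its peak at 1 day.

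The genes called between 3 and 2 days were also read in other mice, as the difference between 4 days and 1 day of cold, groups that enter neither side of the first comparison. Of 10602 genes tested there, 864 (8.15%) were higher and 701 (6.61%) lower at 4 days, and 49.3% had a positive log2 fold change. All 14 genes that rose between 2 and 3 days had a positive log2 fold change in that comparison, with a median of 2.58, and 13 of them were called. The exception was Serping1, at 0.38 (adjusted p = 0.137, edgeR). Isg15 was at 3.91, Lgals3bp at 2.97, Nnat at 1.92 and Hlf at 1.39. Gmpr was lower there as well, at -2.06.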

How the data were processed

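Total iBAT RNA was profiled with the QuantSeq 3′ kit, which reads transcript ends, so counts follow transcript number without a length term. The deposited values are raw read counts per gene that the authors made with STAR 2.6.1d and HTSeq 0.11.2 on GRCm38, per the labels and the submitters' processing notes. The strand setting is not given in the sources used here. The table held 55421 genes, 55240 of which matched a symbol. Each count table column was mapped to its mouse by its label.

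Counts were fitted in R 4.3.3 with edgeR 4.0.16: TMM scaling, filterByExpr, and the quasi-likelihood test of 3 against 2 days over 5 mice a group without covariates. A gene was called at a Benjamini-Hochberg adjusted p below 0.05. SE is the log2 fold change divided by the root of the F statistic. Printed levels are CPM scaled by TMM over all 35 libraries, and 1 read was worth 0.166 to 0.256 CPM in the 10 libraries compared. List means used log2 CPM with a prior count of 2. Genes named were those called with a mean of at least 20 counts (the 12 with the widest change in a direction), up to 4 members of each list with the smallest p, and the genes the study labels. Other genes are named as members of a list or after their values were seen. The comparison, its members and the 39 first lists were chosen with earlier results of these data known, and 9 lists were added after the values were seen. The labels number the replicates and say nothing else of how those within a group differ. Intervals on counts cover counting error only.

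Alternatives were DESeq2 1.42.0, limma voom 3.58.1 with mouse weights, other scalings and filters, a fit of all 7 groups, a replicate block and fits without each mouse in turn. On counts simulated for this comparison over 10322 genes, edgeR recovered 76 of 100 genes changed by 1 on the log2 scale. It recovered 100 of 100 changed by 2. The same fit made 16 false calls among the genes left unchanged. The changed genes all had a mean of at least 20 counts, and the simulated mice had no split shared across genes. More genes were changed than were called in the data, which eases the adjusted threshold. These recoveries therefore do not give the power of the real comparison. Promoter windows came from RefSeq (GRCm38.p6), and gene overlaps from GENCODE. Some items are not reported here.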

Additional observations from a re-analysis of the deposited data

Results flagged for a closer look

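In 150 groups of 5 mice examined for a mouse far from the rest, 2 were flagged, where chance flags about 1 in 20. Isg15 read 1.05 CPM in replicate 4 at 2 days of cold, and the nearest of the other 2-day mice read 3.17 CPM. Gmpr read 1169 CPM in replicate 2 at 3 days, and the nearest of the other 3-day mice read 949 CPM.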

How the results depend on the processing

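The 15 called genes kept their direction in every alternative, whereas the number of calls moved. Against 14 higher and 1 lower, DESeq2 called 61 and 16, no filter on low counts 193 and 48, and a fit of all 7 groups 44 and 11. Library size scaling called 4 higher, robust dispersion 6 and voom 3. With library size scaling the median log2 fold change of all genes was 0.077. Leaving out 1 mouse gave 2 to 65 higher and 0 to 6 lower genes. Higher genes numbered 5, 2, 3, 7 and 3 without replicates 1 to 5 at 2 days and 2, 47, 4, 2 and 65 without replicates 1 to 5 at 3 days. Gmpr was called in 5 of those 10 fits, Nnat in 5, Trim25 in 4 and the other called genes, apart from Lgals3bp, Hlf and Bst2, in 2. The cause of these differences was not tested. The fits that left out 1 mouse also had fewer mice.

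The number of calls that were also called in 4 days against 1 day was 14. It was 5 with library size scaling and 2 to 58 without 1 mouse. With a replicate block, 5 genes were higher and 0 lower. Replicate numbers did not pair the mice: the correlation of deviations of same-numbered mice was 0.24, -0.28, -0.29, -0.15 and 0.0055, and no mouse matched best with its own number. The receptor differences had no stable sign: the Ifnar1 log2 fold change was -0.0210 and the Ifnar2 log2 fold change -0.0302 with voom, and they ran from -0.13 to 0.13 and from -0.0840 to 0.0758 without 1 mouse. The Ifi27l2a log2 fold change ran from -0.49 to 0.0340 without 1 mouse. Genes of under about 10 counts a mouse were not testable at this depth.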
